A study of Rattus norvegicus with 6 samples.

Results

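The T cell receptor complex and its signalling partners were followed through 9 genes, Cd3d, Cd3e, Cd3g, Cd247, Cd2, Cd5, Cd8a, Lck and Cd28. The members were taken as the probes whose accession belongs to 1 of these genes, which gave 10 probes of the 61537 on the array and 9 of 15639 named genes. The arrays carried renal cortex RNA of 6 male rats of the Sprague-Dawley strain, Crl:CD(SD), bought at 5 weeks of age, with 1 array per animal. The vehicle group was 3 rats given corn oil, and the treated group was 3 rats that received p-nitroanisole (an aromatic nitro compound) at a daily dose of 500 mg/kg. Both groups were dosed for 4 weeks and kept on the same basal diet, and the labels name no genetic change in either. The levels are those of whole cortex, so fewer T cells and less RNA per T cell cannot be told apart.

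The T cell receptor recognises peptides held by MHC molecules but has no signalling tail of its own. The CD3 chains and the zeta chain carry the tyrosine motifs that Lck phosphorylates, and CD8 or CD4 brings Lck to the complex. CD28 gives the second signal that a naive T cell needs, CD2 holds the T cell to its partner, and CD5 dampens the signal. In a healthy kidney T cells are a small resident population among tubule cells.

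Of the 9 members, 8 were well above background on all 3 vehicle arrays and were tested, and Cd28 was not. Of these 8, 0 passed the test between the groups (limma, 0 also at an unadjusted p under 0.05). Over all 32203 rows tested (named genes and unnamed probes), 0.0745% were called at an adjusted p under 0.05 and 13.4% had an unadjusted p under 0.05. All 8 differences were below 0, with a median log2 difference of -0.16, against 47.6% of all rows below 0 and a median of 0.01. That count is a description, since Cd3e and Cd5 entered the test only through the vehicle arrays. With the 6 members well above background on every array it was 6 of 6. With no filter it was 9 of 9, but the gene added was Cd28, well above background on 1 array only. Its sign therefore adds nothing to that count. Within slide 1, which leaves out treated replicate 3, only 4 of 8 were below 0 and the median was -0.05. Without vehicle replicate 3 the count was 5 of 8 with a median of -0.04. Without treated replicate 2 it was 8 of 8 with a median of -0.36.

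Levels are printed as a percent of the 75th percentile of the processed intensity of the same array, and differences are on the log2 scale. The dimmest spot that the scanner software called well above background lay between 1.59% and 2.22% of that percentile. On each array 66.4% to 69.2% of probes passed that call, and the 75th percentile lay between 877 and 1022 intensity units. Markers of the labelled tissue were present, with all 12 renal cortex cell markers passing the filter and the phosphate transporter gene Slc34a1 of the proximal tubule at 30870% to 34330%. The 3 vehicle arrays and treated replicates 1 and 2 were on slide 1 and treated replicate 3 on a second slide, so the slide of that array and its animal cannot be told apart.

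**Figure D1:**
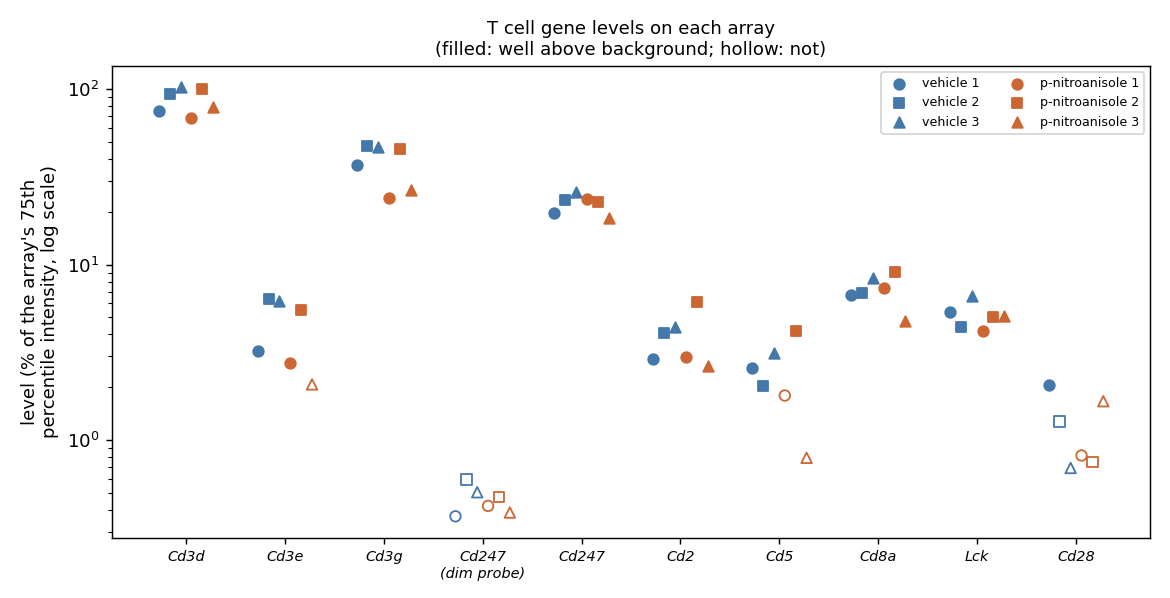
Level of each member probe on each array, as a percent of the array's 75th percentile intensity on a log axis, with vehicle arrays in blue, treated arrays in orange and spots not well above background hollow. The groups overlap for every probe, and Cd28, the second Cd247 probe and some Cd3e and Cd5 spots are not well above background.

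Cd3d, Cd3e and Cd3g encode the delta, epsilon and gamma chains of the complex, and they lie close together on chromosome 8 of the RefSeq assembly GRCr8, Cd3g beside Cd3d. The 250 bases before the start of each are shown because these 3 were among the 4 members whose difference stayed below 0 in every alternative run. The sequences are RefSeq's on build GRCr8, written 5′ to 3′ along each gene's own strand, and capitals mark the ETS core AGGAAG or its reverse complement CTTCCT.
Cd3e (chr8:54211771-54212020, minus strand): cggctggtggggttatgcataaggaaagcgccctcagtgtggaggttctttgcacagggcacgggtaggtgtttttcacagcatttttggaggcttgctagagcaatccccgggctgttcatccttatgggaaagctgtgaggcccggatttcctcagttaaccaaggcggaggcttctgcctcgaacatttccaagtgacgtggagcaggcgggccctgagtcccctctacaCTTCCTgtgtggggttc
Cd3g (chr8:54183919-54184168, minus strand): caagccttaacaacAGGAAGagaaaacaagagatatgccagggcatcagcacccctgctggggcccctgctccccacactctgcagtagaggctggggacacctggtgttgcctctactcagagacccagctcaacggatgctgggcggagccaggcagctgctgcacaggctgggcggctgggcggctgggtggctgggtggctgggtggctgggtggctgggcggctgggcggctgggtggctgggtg
Cd3d (chr8:54185269-54185518, plus strand): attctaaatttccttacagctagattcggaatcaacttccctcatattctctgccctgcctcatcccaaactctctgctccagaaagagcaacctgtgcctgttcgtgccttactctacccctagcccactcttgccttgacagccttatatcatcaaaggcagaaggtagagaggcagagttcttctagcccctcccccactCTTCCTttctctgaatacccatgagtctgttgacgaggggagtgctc
All 9 members matched the promoter table, with 10 windows since Lck has 2. The ETS letters were in 7 of the 10 windows, those of Cd3d, Cd3e, Cd3g, Cd247, Cd5 and both of Lck, against 29.5% of all 33469 windows of the same length. The E-box CAGGTG, searched on both strands as were all motifs, was in 5 windows (15.9% of all windows), the RUNX letters TGTGGT in 3 (14.5%) and the TATA letters TATAAA in 0 (12.9%). None of these letter strings is part of another, and a match describes the sequence and no more.

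Cd3e, the chain that pairs with both delta and gamma, had the largest difference among the members over all 6 arrays. However, Cd3g had a larger one within slide 1 and with normexp, and Cd5 without treated replicate 2 or without vehicle replicate 2. The levels of Cd3e were 3.21%, 6.34% and 6.20% on vehicle replicates 1, 2 and 3, and 2.74%, 5.54% and 2.07% on treated replicates 1, 2 and 3. Treated replicates 1 and 3 lay below the lowest vehicle array and treated replicate 2 lay among the vehicle arrays, so the groups overlapped. The spot was well above background on 5 of 6 arrays, treated replicate 3 being the exception. The group means were 5.25% ± 1.77 and 3.45% ± 1.84 (SD, n = 3 each). Treated minus vehicle was -0.67 on the log2 scale (SE 0.44, 95% interval -1.75 to 0.41, limma adjusted p = 0.548), which reaches from 3.36-fold lower to 1.33-fold higher with treatment. It was -1.07 without treated replicate 2 and -0.36 within slide 1. With the normexp background correction it was -0.20.

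Cd3g, the gamma chain, was well above background on all 6 arrays. It stood at 37.2%, 47.7% and 46.8% on the vehicle arrays and at 23.9%, 45.5% and 26.7% on the treated arrays. Treated replicates 1 and 3 were again below every vehicle array, and treated replicate 2 was not. The means were 43.9% ± 5.81 and 32.0% ± 11.7 (SD, n = 3 each). That gave a log2 difference of -0.51 (SE 0.26, 95% interval -1.15 to 0.13, limma adjusted p = 0.458, exact permutation p = 0.2 where 0.1 is the smallest that 3 against 3 allows). Across the alternatives it ran from -0.79 without treated replicate 2 to -0.32 with normexp.

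Cd3d stood at 75.6%, 94.1% and 103% on the vehicle arrays and at 68.9%, 99.9% and 79.6% on the treated arrays. Only treated replicate 1 lay below the vehicle range. The means were 90.8% ± 13.9 and 82.8% ± 15.7 (SD, n = 3 each), a log2 difference of -0.14 (SE 0.18, 95% interval -0.57 to 0.30, limma adjusted p = 0.753). It was -0.02 without treated replicate 1, -0.04 without vehicle replicate 3, -0.27 without vehicle replicate 1 and -0.28 without treated replicate 2. For all 3 CD3 chains treated replicate 2 was the highest treated array, and their differences between groups ran from -0.14 to -0.67.

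Cd247 encodes the zeta chain, which carries most of the signalling motifs of the complex. Its brighter probe, well above background on all 6 arrays, read 19.6%, 23.4% and 25.8% on the vehicle arrays and 23.6%, 22.8% and 18.4% on the treated arrays. Here treated replicate 3 alone lay below the vehicle range and treated replicate 2 did not stand out. The groups differed by -0.08 on the log2 scale (SE 0.14, 95% interval -0.44 to 0.27, limma adjusted p = 0.823). For this probe the interval reaches from 1.35-fold lower to 1.21-fold higher with treatment. The difference was 0.03 within slide 1 and -0.19 without vehicle replicate 1. A second Cd247 probe was well above background on 0 of 6 arrays, at 0.37% to 0.59%, so the probes of this gene disagree on detection and that one was not tested.

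Cd8a, the co-receptor chain of cytotoxic T cells, stood at 6.68%, 6.88% and 8.40% on the vehicle arrays and at 7.37%, 9.03% and 4.80% on the treated arrays. Treated replicate 3 was the lowest of the 6 arrays and treated replicate 2 the highest. The mean log2 difference was -0.09 (SE 0.24, 95% interval -0.69 to 0.51, limma adjusted p = 0.887), and it was 0.16 within slide 1.

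Lck, the kinase that starts the phosphorylation cascade, stood at 5.34%, 4.38% and 6.59% on the vehicle arrays and at 4.15%, 5.04% and 5.09% on the treated arrays. Its arrays did not follow the order of Cd3e, treated replicate 3 being the highest of its group. Its log2 difference was -0.18 (SE 0.17, 95% interval -0.59 to 0.24, limma adjusted p = 0.674), and it was -0.01 with normexp. It was -0.03 without vehicle replicate 3, -0.08 without treated replicate 1 and -0.32 without vehicle replicate 2.

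Cd2, an adhesion receptor of T and NK cells, stood at 2.89%, 4.09% and 4.42% on the vehicle arrays and at 2.97%, 6.15% and 2.64% on the treated arrays. Treated replicate 2 was the highest of all 6 and treated replicate 3 the lowest. Between groups the log2 difference was -0.04 (SE 0.35, 95% interval -0.91 to 0.83, limma adjusted p = 0.972), and it was -0.42 without treated replicate 2. It lay above 0 when vehicle replicate 2 (0.03), vehicle replicate 3 (0.08), treated replicate 1 (0.11) or treated replicate 3 (0.19) was left out, and with normexp (0.06).

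Cd5, an inhibitory receptor of T cells, was the member with the widest error. It stood at 2.56%, 2.04% and 3.12% on the vehicle arrays and at 1.79%, 4.20% and 0.79% on the treated arrays. Treated replicate 2 was above every vehicle array, and treated replicates 1 and 3, the lower 2, were not well above background. The log2 difference was -0.48 (SE 0.59, 95% interval -1.94 to 0.97, limma adjusted p = 0.746). It was 0.11 within slide 1 and -1.09 without treated replicate 2, so leaving out 1 array turns its sign.

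Cd28, the costimulatory receptor, was the member that could not be tested. Its spot was well above background on vehicle replicate 1 alone, at 2.07%, and read 1.27% and 0.69% on vehicle replicates 2 and 3. The treated arrays read 0.81%, 0.75% and 1.66%, not well above background on any. No fold is given, since the bound from the dimmest detected spots is below 1.

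**Figure D2:**
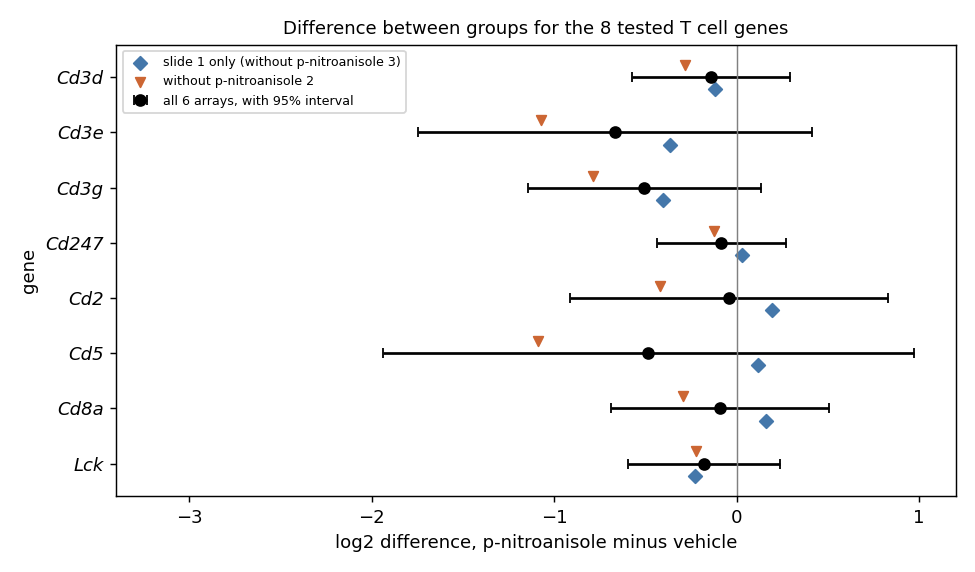
Log2 difference, p-nitroanisole minus vehicle, for the 8 tested members, as points with 95% intervals from limma on 6 arrays, with the values within slide 1 (blue diamonds) and without treated replicate 2 (orange triangles). Every interval holds 0, and Cd247, Cd2, Cd5 and Cd8a lie above 0 within slide 1.

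The members were then compared array by array, each against its own vehicle mean. On treated replicate 3 all 8 tested members lay below their vehicle mean, with deviations from -0.08 to -1.68 and a median of -0.55. On treated replicate 1 there were 6 below, with a median of -0.38 and a range of -0.87 to 0.05. On treated replicate 2 there was 1 below (Lck), with a median of 0.15 and a highest value of 0.73 for Cd5. The vehicle arrays also differed among themselves, with 7 members below the vehicle mean on replicate 1 (median -0.22) and 0 below it on replicate 3 (median 0.22).

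Put as ranks, treated replicate 2 was the highest treated array for 6 of the 8 members, all but Cd247 and Lck, against 35.6% of all rows. Treated replicate 3 was the lowest treated array for 5 of the 8, against 37.2% of all rows. Vehicle replicate 1 was the lowest vehicle array for 6 of the 8, against 33.1%, and vehicle replicate 3 the highest for 6, against 34.8%. The members share arrays and scaling, so these counts are not independent of each other. The median deviation over all rows lay between -0.00 and 0.01 on every array. The treated arrays had the larger SD for 6 of the 8 members, against 60.9% of all rows.

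**Figure D3:**
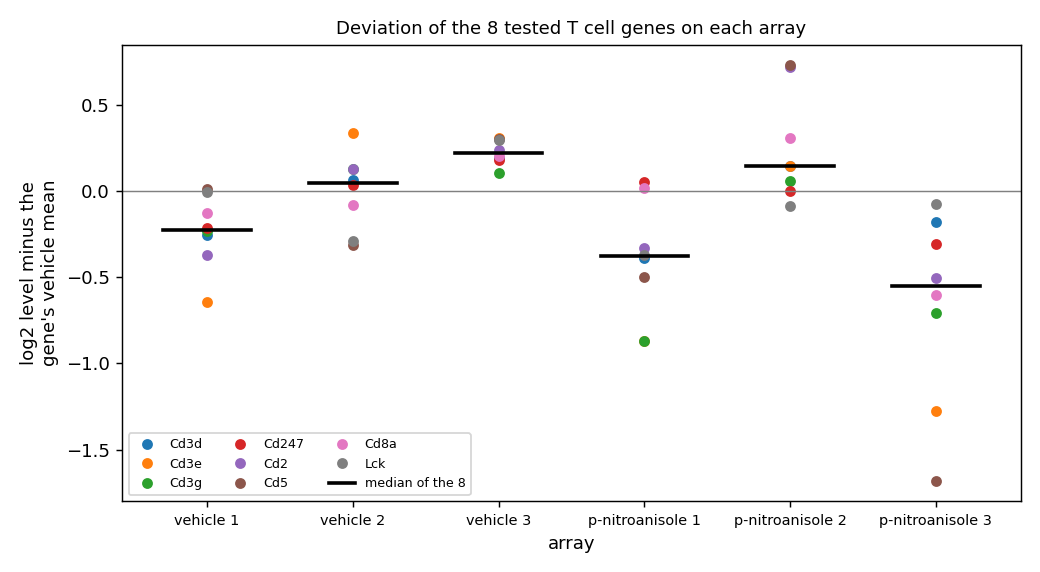
Log2 level of each of the 8 tested members minus its own vehicle mean, by array, with the median of the 8 as a bar. The medians are -0.22, 0.05 and 0.22 on the vehicle arrays and -0.38, 0.15 and -0.55 on the treated arrays, and the median of treated replicate 2 lies within the range of the vehicle medians.

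The rest of the pathway was read from a list of 33 other T cell receptor signalling genes, of which 28 were on the array and 23 were tested. Of these, 0 were called and 3 had an unadjusted p under 0.05, all lower (limma), against 5.76% of all rows lower at that level. The 3 were Cd4 at -0.39 (SE 0.11, adjusted p = 0.256), the CSK-binding adaptor gene Pag1 at -0.44 (SE 0.14, adjusted p = 0.299) and Ptprc, the CD45 phosphatase, at -0.35 (SE 0.13, adjusted p = 0.345). They were named after their values were seen, and Ptprc is counted again among the pan-leukocyte genes below. In total 15 of 23 were below 0, against 47.6% of all rows, with a median of -0.17 and of -0.12 within slide 1. All treated arrays lay below all vehicle arrays for 4 of the 23, against 10.3% of all rows. They lay above them for 2, a direction for which the share of all rows was not counted.

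Icos, a costimulatory receptor related to CD28, had a log2 difference of 0.75 (SE 0.38, limma adjusted p = 0.455), with 28.6% on treated replicate 2 against 10.6% to 11.6% on the other treated arrays and 8.43% to 9.82% on the vehicle arrays. Without treated replicate 2 it was 0.30. Its second probe differed by 0.12 and was well above background on 2 arrays. Csk, which holds Lck in its inactive form, differed by -0.17 (SE 0.07, limma adjusted p = 0.382). A second Csk probe, also well above background on 6 arrays, differed by -0.01. Cd8b, the partner chain of Cd8a, differed by -0.36 (SE 0.26, limma adjusted p = 0.579) and is named after its values were seen.

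Among 15 tested transcription factors and homing receptors of T cells 0 were called and 1 had an unadjusted p under 0.05 (limma), with 8 below 0 and a median of -0.10 (0.00 within slide 1). Of all rows 13.4% had such a p and 47.6% were below 0. Il7r, the receptor that keeps resting T cells alive, differed by -0.71 on the log2 scale (SE 0.36, limma adjusted p = 0.454). Its probe was well above background on 5 arrays and lay near the dimmest detected spots. It read 3.90%, 7.39% and 3.02% on the vehicle arrays and 2.40%, 3.57% and 2.33% on the treated arrays. Without vehicle replicate 2 the Il7r difference was -0.34. The bright probe of Tbx21, a factor of type 1 T cells, differed by 0.22 (SE 0.19, limma adjusted p = 0.637), and by 0.0025 without treated replicate 3, the array on the second slide. The bright probe read 5279% to 5376% on the vehicle arrays and 5266% to 8366% on the treated arrays, with treated replicate 3 the highest. For comparison, Cd3d read 68.9% to 103% over all arrays. The second Tbx21 probe was well above background on 0 arrays and differed by -0.425, so the probes disagree on detection and in sign. Whether the bright probe reports Tbx21 of T cells was not tested.

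Ligands and chemokines of T cells gave 0 calls among 12 tested, 8 of them below 0 with a median of -0.15, and 1 with an unadjusted p under 0.05 (limma). Of all rows 47.6% were below 0 and 13.4% had such a p. Without treated replicate 2 the median was -0.01, with 7 of 12 below 0. That was Cxcl9, a chemokine that draws in activated T cells, at 10.75%, 23.2% and 11.6% on the vehicle arrays and 7.21%, 7.95% and 3.49% on the treated arrays. All 3 treated arrays were below the vehicle range, treated replicate 2 included, and the log2 difference was -1.29 (SE 0.43, limma adjusted p = 0.303). Ccl5, made by T and NK cells, read 387%, 379% and 333% on the vehicle arrays and 275%, 388% and 251% on the treated arrays, with treated replicate 2 at the vehicle level (log2 difference -0.29, SE 0.18, limma adjusted p = 0.520). B2m, the light chain of MHC class I, differed by -0.04 (SE 0.06, limma adjusted p = 0.808).

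Markers of the other immune cells that the cortex can hold were read beside the members, and 0 of them were called (limma). Of all rows 0.0745% were called and 47.6% were below 0. At an unadjusted p under 0.05 (limma) stood 13.4% of all rows in either direction, and 5.76% lower. A gene could enter the test through the arrays of 1 group alone. Pan-leukocyte genes were below 0 in 12 of 13 tested (Ptprc, Cd53 and Cd37 lower and Cd52 higher at an unadjusted p under 0.05), with a median of -0.28, and their summed level was 3570% to 3813% on vehicle arrays and 2690% to 3528% on treated arrays. Macrophage and dendritic genes were below 0 in 8 of 12 (Cd68 and C1qb lower and Mrc1 higher at that level), with a median of -0.23 and summed levels of 6353% to 7918% and 5603% to 7431%. NK and cytotoxic genes were below 0 in 9 of 10 (Gzmb and Klrd1 lower), with a median of -0.25 and sums of 276% to 312% and 256% to 286%. B cell genes were below 0 in 6 of 7 (Pou2af1 lower), with a median of -0.29 and sums of 289% to 422% and 294% to 382%. Within slide 1 the median was -0.15 for the pan-leukocyte genes and -0.13 for the macrophage genes. Without treated replicate 2 the macrophage median was -0.35. The summed level of the 8 tested members was 153% to 204% and 135% to 198%. Such sums lean on their brightest genes and are not levels of a cell type. Over the 6 arrays Cd74 alone read 3213% to 5468% in the macrophage sum. Pax5 read 145% to 261% in the B cell sum, and Cd3d 68.9% to 103% in that of the members. Genes named only for an unadjusted p under 0.05 (limma) were chosen after their values were seen. The part of a changed mix of immune cells in the members' values was not tested.

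The lists were also set beside each other by array. For the macrophage genes the median deviation on treated replicate 2 was 0.04, against -0.34 and -0.44 on treated replicates 1 and 3. For the pan-leukocyte genes the medians on treated replicates 1, 2 and 3 were -0.15, -0.11 and -0.48, and for the NK genes -0.12, -0.22 and -0.47. B cell genes stood at -0.26, -0.14 and -0.32. Renal cortex cell markers stayed between -0.03 and 0.04 on the treated arrays. These medians are a description, and the difference between lists was not tested.

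**Figure D4:**
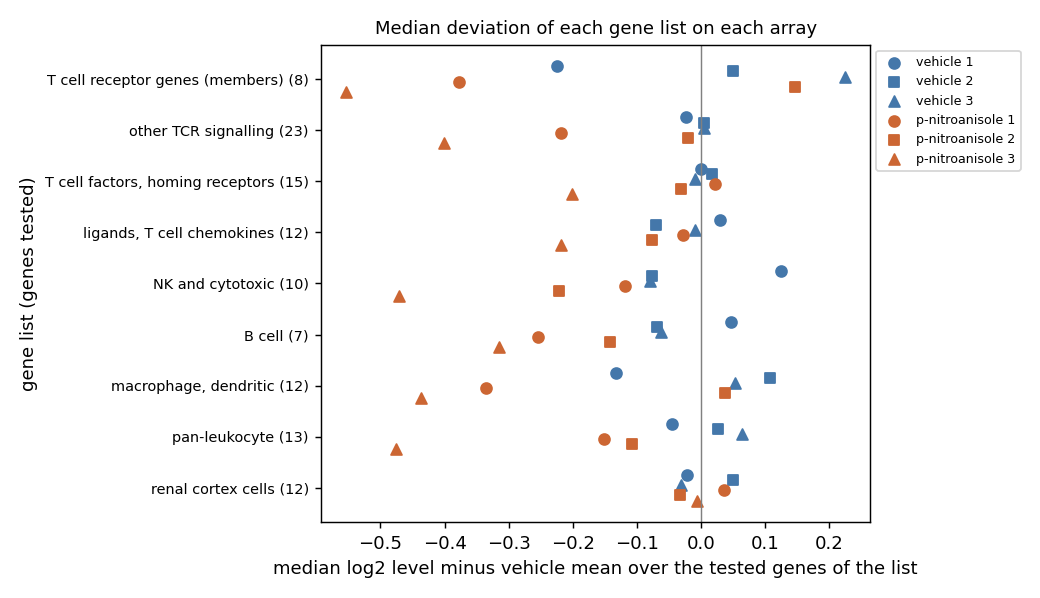
Median log2 level minus the vehicle mean over the tested genes of each list, by array, with vehicle arrays in blue and treated arrays in orange. Treated replicate 3 is the lowest array for each immune list, at -0.20 to -0.55, and treated replicate 2 lies within the vehicle range for both lists of T cell receptor genes and for the macrophage genes.

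Single genes of these lists showed the range. Gzmb, a granule protease of cytotoxic cells, read 11.7%, 6.92% and 7.39% on the vehicle arrays and 4.88%, 3.87% and 3.96% on the treated arrays, with no overlap and with treated replicate 2 the lowest (log2 difference -0.999, SE 0.22, limma adjusted p = 0.178). Gzma differed by -0.51 (SE 0.22, limma adjusted p = 0.388) and Klrk1, an activating receptor of NK and cytotoxic T cells, by 0.14 (SE 0.15, limma adjusted p = 0.722). Klrk1 was at 0.02 without treated replicate 3, and its other 2 probes gave -0.67 and -0.945. Fcgr3a, an Fc receptor of macrophages and NK cells, read 94.2%, 188% and 235% on the vehicle arrays and 79.6%, 117% and 55.8% on the treated arrays (log2 difference -1.0, SE 0.42, limma adjusted p = 0.382). Mrc1, a scavenger receptor, was higher on each treated array, at 14.95%, 14.98% and 21.05% against 12.5%, 13.1% and 9.715% (log2 difference 0.52, SE 0.18, limma adjusted p = 0.321). The second Mrc1 probe, well above background on 2 arrays, went the other way at -0.17. Cd74, the MHC class II chaperone, differed by 0.13 (SE 0.22, limma adjusted p = 0.810), and by -0.045 without treated replicate 3.

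Cd72, a B cell receptor, differed by -0.71 (SE 0.35, limma adjusted p = 0.442), Fcrla by -0.48 (SE 0.73) and the B cell factor Pax5 by 0.11 (SE 0.25). Each of the latter turned with 1 array, Fcrla to 0.39 without vehicle replicate 1 and Pax5 to -0.15 without treated replicate 3. Cd72 was at -0.39 without treated replicate 3. Cd52, a small surface glycoprotein of lymphocytes, had a difference opposite in sign to the 8 members. It read 17.15%, 22.5% and 31.5% on the vehicle arrays and 88.4%, 100% and 139% on the treated arrays, with no overlap. Its log2 difference was 2.22 (SE 0.27, limma adjusted p = 0.0805), which is not a call. Itgal, the integrin chain of leukocytes, differed by -0.38 (SE 0.24, limma adjusted p = 0.531) and Arhgdib by -0.29 (SE 0.17, limma adjusted p = 0.511). Without treated replicate 3 these were -0.15 and -0.13. In the kidney list Nphs1 of podocytes differed by -0.17 (SE 0.10), Umod of the thick limb by 0.13 (SE 0.14) and Slc34a1 by 0.08 (SE 0.06), none of them called.

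The genes whose 6 array values ran closest to the mean of the 8 tested members were Pcmtd1 (Pearson r = 0.987), Usp24 (0.983), Usp10 (0.983), Rpl8 (0.982) and Gtf2a2 (0.979). Their own log2 differences were between -0.10 and -0.02, against -0.67 for Cd3e, and none is in a list above. Of 32200 rows, 1.27% had an r of at least 0.9 over these 6 arrays. Outside the members, the listed genes at or above 0.9 were the macrophage complement genes C1qa (0.946) and C1qc (0.909), the co-receptor chain Cd8b (0.911) and Rac2 (0.903). Il2rg was the lowest of the listed genes at -0.81, and Cd52 had -0.38, these 6 being named after their values were seen. The members' own values, each included in that mean, ran from 0.405 for Lck to 0.945 for Cd3e. Each r rests on 6 points that share arrays and scaling and describes likeness of pattern only.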

How the data were processed

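Per the file headers, the deposited intensities came from Agilent Feature Extraction, with background subtracted and no scaling across arrays. The values of the authors' deposited matrix were found to be these intensities divided by 1 constant per array; its column medians were 0.105, 0.105 and 0.105 (vehicle) and 0.109, 0.108 and 0.111 (treated). Probes were named by accession from RefSeq (GRCr8), which named 28193 of 61537 probes (45.81%).

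Intensities were floored at 1, taken to log2 and centred on each array's 75th percentile, control probes left out. Outlier spots (0 to 4 per array) were left out and 0 spots were saturated. A probe entered the test if the scanner software called it well above background throughout 1 group or both; the tested probe with the highest mean stood for each gene. Groups were compared across all 32203 rows with limma 3.58.1 in R 4.3.3 (lmFit, eBayes, two-sided, Benjamini-Hochberg, threshold 0.05), a procedure tested on simulated data. The labels call the animals biological replicates.

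Members and lists were chosen with earlier results of these data known. Named were all members, for each list its 2 tested genes with the largest difference and the one with the highest mean, and the 5 genes most like the member mean; others are marked as chosen after their values were seen. Some genes that this rule names are not reported here. Alternatives were other scalings, the series matrix values, other filters, every probe as a row, a trended robust variance, slide and replicate blocks, a stricter threshold (0.01) and dropping each array in turn; a normexp correction of the median signals was added after the files were seen, in place of one on mean signals, which was not run.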

Additional observations from a re-analysis of the deposited data

How the results depend on the processing

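The call on the members did not move: 0 members were called by limma in any of the 18 alternatives, and the smallest adjusted p of any member was 0.229, for Cd3g without treated replicate 2, where 3 members had an unadjusted p under 0.05. Cd3d, Cd3e, Cd3g and Lck were below 0 in each alternative that gave a value. Within slide 1, and equally with the slide as a block, which rests on the same 5 arrays, 4 of 8 members were below 0 and Cd247 (0.0282), Cd2 (0.19), Cd5 (0.11) and Cd8a (0.16) lay above 0. With normexp Cd2 was at 0.0643 and Cd5 at 0.0171, and 6 of 8 were below 0 with a median of -0.01. When each array was left out in turn, 4 to 8 members were below 0, with Cd247 from -0.19 to 0.0282, Cd2 from -0.42 to 0.19, Cd5 from -1.09 to 0.11 and Cd8a from -0.29 to 0.16; without vehicle replicate 3 Cd247 was at 0.01, Cd2 at 0.08 and Cd8a at 0.01, and Cd2 was at 0.03 without vehicle replicate 2 and 0.11 without treated replicate 1. The median of the members ran from -0.36 to -0.01 over the alternatives. Of all rows 24 were called, 85 with normexp, 2 with no filter, 316 with the trended robust variance, 9 within slide 1 and with the slide block, 0 at a threshold of 0.01 and 0 to 9 when an array was left out (0 without vehicle replicate 2 or treated replicate 1, where 3261 and 3722 rows had an unadjusted p under 0.05); the cause was not tested.

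With the replicate block 1 row and 0 members were called. Same-numbered arrays correlated in their deviations at -0.01, 0.04 and -0.01, and differently numbered arrays at -0.068 to 0.065. No likeness by number was seen, but whether the animals were paired cannot be told from these values. The median of all rows moved from 0.01 to -0.04 with median scaling and -0.02 with quantile scaling. Cd2, Cd3e, Cd5 and Cd28 lie near the dimmest detected spots, which limits what 3 arrays per group can show for them.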
